A study of Mus musculus with 9 samples.

Results

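The liver holds its own macrophages, the Kupffer cells, and this report follows 37 genes that mark them and the other myeloid cells of the liver of mice on a high-fat diet (HFD). The genes were chosen by symbol from a fixed list and fall into 7 genes of resident Kupffer cells, 16 genes that most macrophages express, 12 genes of monocyte-derived and lipid-associated macrophages, and 2 genes of neutrophils. All 37 were found among the 33211 genes of the deposited table, 36 of them by symbol. The other, Adgre1, is listed there under its older symbol Emr1 and was matched by its Ensembl identifier, ENSMUSG00000004730.

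RNA-seq was performed on whole liver of C57BL/6 mice, the common inbred laboratory strain (the J substrain in the methods of the study), fed an HFD that differed in its storage. The diet came from the freezer for the 5 mice of HFDfre and from the fridge for the 4 of HFDfri. The study describes them as young males that were fed for several weeks, and both groups received the same type of HFD, so that neither is a group on standard chow. The comparison addresses how storage of the diet affects the liver. Library totals ran from 58614917 to 69353439 counts. The study calls the libraries biological repeats, the labels do not name the animals, and p-values here measure the spread between these libraries. The 10 hepatocyte markers examined summed to between 85204 and 111512 CPM (counts scaled by library total and TMM factor).

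Kupffer cells sit in the sinusoids, where they take up bacteria, dying cells and lipoproteins from portal blood. They arise before birth and renew themselves, and carry receptors such as CLEC4F, VSIG4 and TIM4. When they are lost, monocytes from blood enter the liver and take their place, and in fatty liver some of these cells turn into lipid-associated macrophages marked by Trem2, Gpnmb, Cd9 and Spp1. The transcription factor PU.1, encoded by Spi1, is required for macrophages to form and binds near most genes that are specific to them.

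The core of the PU.1 motif was searched in the promoter windows of the members as GAGGAAG on both strands, from 250 bases before to 50 bases after each RefSeq start site (GRCm38.p6). Windows were found for 30 members, 33 windows in all, and 13 of them (39.4%) held the core, against 13.6% of all 32851 windows. The windows with the core belonged to 12 genes, namely C1qc, Cd5l, Ctss, Itgam, Laptm5, Ly6c2, Marco, Mrc1, S100a8, Spp1, Tnf and Trem2. Those of Cd5l and Marco, 2 genes of resident Kupffer cells, and of Spp1 and Trem2, 2 genes of lipid-associated macrophages, are shown from 250 bases upstream to the start site, with the core in capitals, as GAGGAAG or as its reverse complement CTTCCTC, in the direction of each gene. The first base of the core lies at -67 in Cd5l, -146 in Marco, -113 in Spp1 and -41 in Trem2, relative to the start site. They lie at chr3:87357631-87357880 on the + strand, chr1:120505025-120505274 on the - strand, chr5:104434861-104435110 on the + strand and chr17:48346151-48346400 on the + strand.
Cd5l: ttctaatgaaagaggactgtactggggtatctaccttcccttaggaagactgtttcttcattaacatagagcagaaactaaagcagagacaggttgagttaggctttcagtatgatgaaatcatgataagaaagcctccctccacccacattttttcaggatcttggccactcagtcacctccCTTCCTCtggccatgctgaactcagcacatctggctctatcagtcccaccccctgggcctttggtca
Marco: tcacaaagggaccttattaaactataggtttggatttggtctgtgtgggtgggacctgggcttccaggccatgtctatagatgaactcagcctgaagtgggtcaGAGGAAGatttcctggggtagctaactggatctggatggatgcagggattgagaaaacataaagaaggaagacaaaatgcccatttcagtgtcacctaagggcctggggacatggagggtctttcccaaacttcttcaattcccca
Spp1: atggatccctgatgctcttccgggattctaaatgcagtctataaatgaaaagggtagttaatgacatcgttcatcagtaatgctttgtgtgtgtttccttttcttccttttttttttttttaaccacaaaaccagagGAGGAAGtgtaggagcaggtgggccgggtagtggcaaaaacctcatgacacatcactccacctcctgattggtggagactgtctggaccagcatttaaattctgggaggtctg
Trem2: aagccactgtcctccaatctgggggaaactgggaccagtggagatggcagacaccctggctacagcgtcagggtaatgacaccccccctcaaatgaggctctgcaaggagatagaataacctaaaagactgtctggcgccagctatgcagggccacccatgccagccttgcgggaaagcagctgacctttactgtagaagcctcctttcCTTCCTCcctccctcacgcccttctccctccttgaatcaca
CACGTG, the E-box bound by the lysosomal factors MITF and TFEB, was in 0 of the 33 windows and in 7.15% of all windows. Such a match is a string of letters and not a measured binding site. Spp1 had another window, at chr5:104435942-104436241, that is not shown and held no PU.1 core. The 2 windows of Ly6c2 overlap each other, and both count among the 13 with the core. Windows for Adgre1, C1qa, Ccl2, Cd14, Csf1r, Msr1 and Tyrobp were not used here.

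Of the 37 members, 35 had enough counts to be tested. By the quasi-likelihood test of edgeR, with p-values adjusted over all 14220 genes tested, 0 of the 35 members passed an adjusted p of 0.05, against 1.05% of all genes. At an unadjusted p of 0.05, 1 member passed, against 21.2% of all genes, and 0 members had libraries that did not overlap between the groups, against 7.69%. The lower side held 28 of the 35 members, or 80% with a log2 fold change below 0 (HFDfri minus HFDfre), against 50.9% of all genes, and the median log2 fold change was -0.25 over the members and -0.01 over all genes. These 35 genes mark overlapping sets of cells and are not independent of each other. In whole liver, fewer cells of a type and less RNA per cell cannot be told apart.

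**Figure D1:**
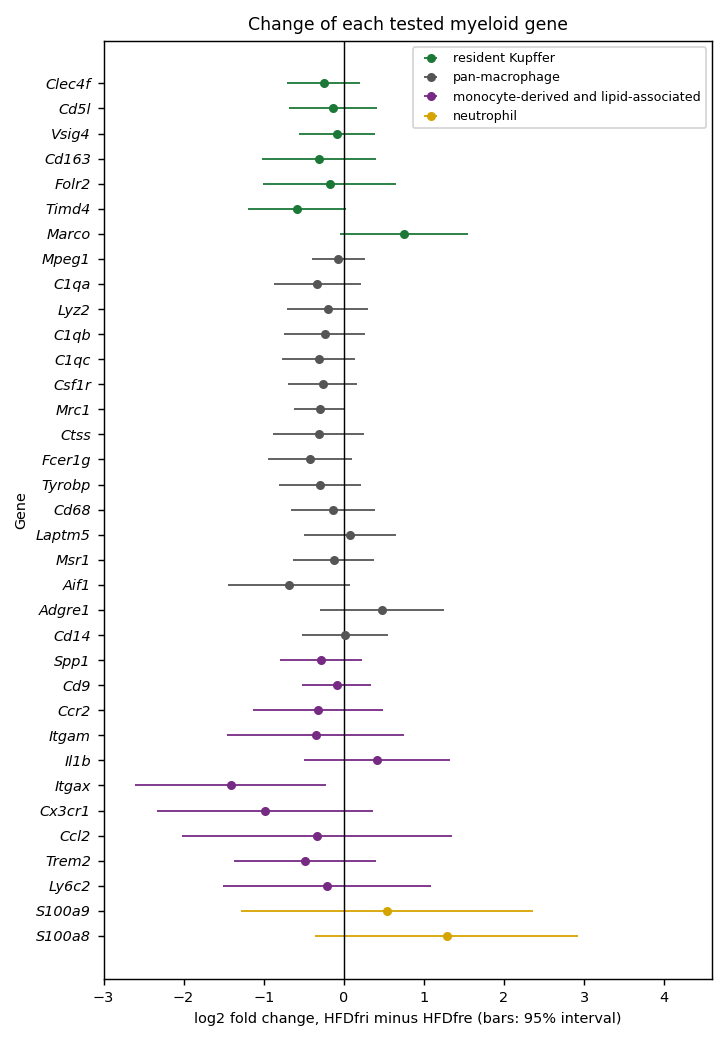
Log2 fold change (HFDfri minus HFDfre) of the 35 tested members, with bars for the 95% interval, coloured by group of genes. The median is -0.25 and 28 of 35 points lie below 0, but every interval other than that of Itgax includes 0.

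The resident Kupffer genes had mean levels from 1.33 CPM (Marco) to 45.4 CPM (Clec4f) in HFDfre, and 0 of the 7 passed the test. Clec4f, the C-type lectin that in mice is found on Kupffer cells (ENSMUSG00000014542, chromosome 6, 83644542 to 83656187, - strand, GENCODE M21, GRCm38), had 48.0, 63.8, 54.4, 32.3 and 28.7 CPM in HFDfre libraries 1 to 5 and 38.0, 39.9, 31.7 and 43.0 CPM in HFDfri libraries 1 to 4. The HFDfri values all lay inside the range of HFDfre, with means of 45.4 ± 14.8 and 38.1 ± 4.75 CPM (SD, n = 5 and 4). The log2 fold change was -0.25 ± 0.21 (SE), with a 95% interval from -0.71 to 0.21 and an adjusted p of 0.527. Cd5l, a secreted scavenger protein that keeps macrophages alive, had the same order of HFDfre libraries, with 18.5, 30.0, 22.6, 12.5 and 10.9 CPM in HFDfre and 17.3, 19.0, 14.2 and 18.2 CPM in HFDfri. Its log2 fold change was -0.14 ± 0.25 (adjusted p = 0.796).

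Of the other receptors of resident cells, Vsig4, a complement receptor, had a log2 fold change of -0.08 ± 0.22. That of Cd163, the receptor for haptoglobin-bound haemoglobin, was -0.31 ± 0.33, and that of Folr2, a folate receptor, was -0.18 ± 0.38. The adjusted p-values of these 3 genes were 0.869, 0.623 and 0.831. Timd4 encodes TIM4, the phosphatidylserine receptor by which resident cells take up dying cells, and its levels in HFDfre were 3.77, 2.29, 2.46, 1.67 and 1.40 CPM. In HFDfri they were 1.69, 1.24, 1.70 and 1.51 CPM, a log2 fold change of -0.59 ± 0.28 with an unadjusted p of 0.0569 and an adjusted p of 0.251. HFDfre 1 was the highest library, and without it the log2 fold change was -0.36 with an unadjusted p of 0.174.

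Marco, a scavenger receptor for bacteria and particles, was the 1 resident gene with a higher mean in HFDfri (ENSMUSG00000026390, chromosome 1, 120474538 to 120505024, - strand, GENCODE M21, GRCm38). It had 1.39, 1.99, 1.62, 0.772 and 0.896 CPM in HFDfre and 3.77, 1.09, 2.32 and 1.81 CPM in HFDfri, and the highest of the 9 libraries was HFDfri 1. The log2 fold change was 0.75 ± 0.37 (unadjusted p = 0.0636, adjusted p = 0.267), and without HFDfri 1 it was 0.37 (unadjusted p = 0.309). Relative to Clec4f of the same library, Marco stood at 2.89, 3.12, 2.98, 2.39 and 3.12% in HFDfre and at 9.94, 2.74, 7.32 and 4.21% in HFDfri, on the CPM scale. This ratio varied little within HFDfre, whereas in HFDfri 3 of 4 libraries lay above its range and 1 lay inside it. Vsig4, by the same ratio, stood at 16.9, 18.6, 19.6, 20.1 and 20.9% in HFDfre and at 16.2, 22.1, 23.7 and 23.6% in HFDfri. There too 3 of 4 HFDfri libraries lay above the HFDfre range, so that a higher ratio to Clec4f was not particular to Marco. The mean ratios in HFDfre and HFDfri were 40.8 and 45.1% for Cd5l and 5.21 and 4.11% for Timd4.

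**Figure D2:**
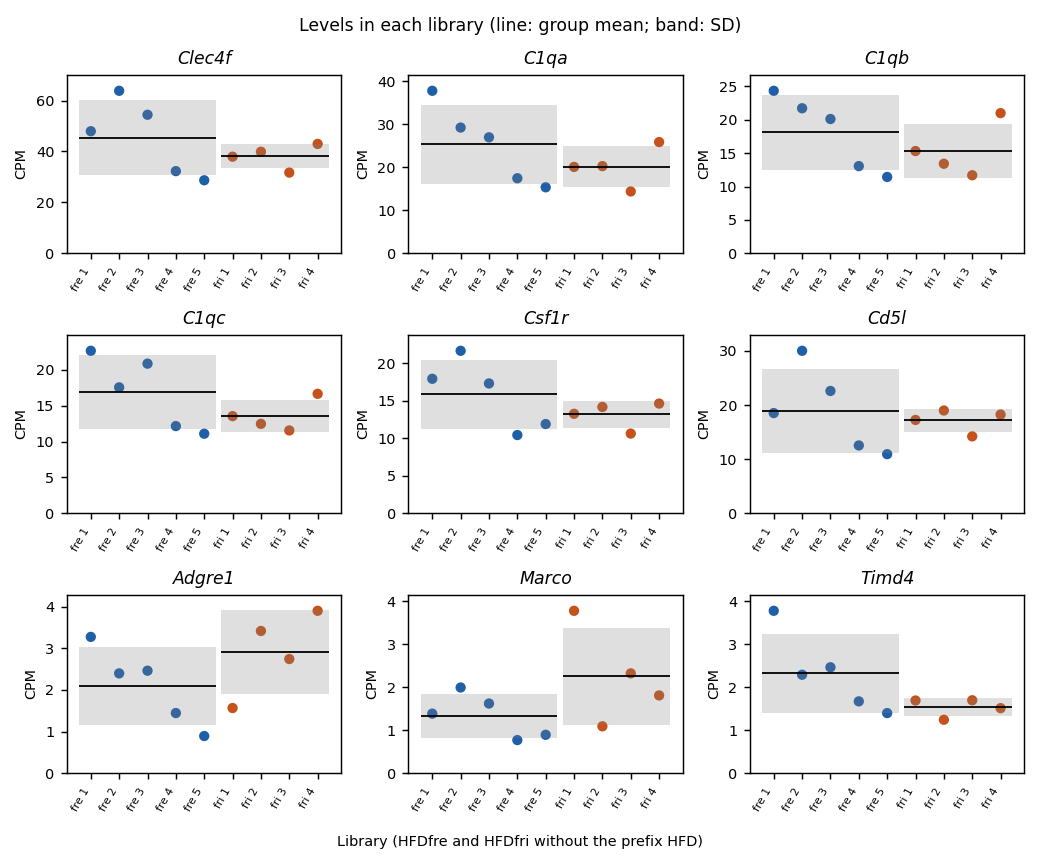
CPM of 9 members in each library, with a line for the group mean and a band for the SD (HFDfre n = 5, HFDfri n = 4; CPM axes start at 0). HFDfre 4 and 5 are the 2 lowest HFDfre libraries in each panel, and the groups overlap in each.

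Of the 16 pan-macrophage genes 0 passed the test, 13 had a log2 fold change below 0, and the median was -0.25. Their level per kb of exon was highest for C1qa, which was also the highest of all members in both groups, at 24.4 CPM per kb in HFDfre and 19.4 in HFDfri. C1qa, C1qb and C1qc encode the A, B and C chains of C1q, the first component of the classical complement pathway, which in liver comes from macrophages (ENSMUSG00000036887, chromosome 4, 136895917 to 136898803, - strand, GENCODE M21, GRCm38 for C1qa, with the other 2 beside it). C1qa had 37.8, 29.2, 27.0, 17.5 and 15.4 CPM in HFDfre and 20.1, 20.3, 14.4 and 25.9 CPM in HFDfri. C1qb had 24.4, 21.7, 20.1, 13.1 and 11.4 CPM and 15.3, 13.4, 11.7 and 21.0 CPM, and C1qc 22.6, 17.5, 20.8, 12.1 and 11.1 CPM and 13.5, 12.5, 11.5 and 16.6 CPM. The 3 chains kept nearly the same proportions in every library, with a C1qa to C1qb ratio per kb between 1.29 and 1.62 and a C1qc to C1qb ratio between 0.446 and 0.583. Their log2 fold changes were -0.33 ± 0.25, -0.24 ± 0.23 and -0.31 ± 0.21, with adjusted p-values of 0.479, 0.593 and 0.420.

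Csf1r, the receptor for the growth factors CSF1 and IL-34 on which macrophages depend, had 17.9, 21.6, 17.3, 10.4 and 11.9 CPM in HFDfre and 13.2, 14.2, 10.6 and 14.6 CPM in HFDfri (log2 fold change -0.27 ± 0.20, adjusted p = 0.477). Mrc1, the mannose receptor, had 18.6, 16.7, 17.5, 13.4 and 12.7 CPM in HFDfre and 10.1, 13.3, 13.2 and 14.7 CPM in HFDfri. Its log2 fold change of -0.30 ± 0.15 had an unadjusted p of 0.0611 and an adjusted p of 0.261. Mrc1 is also expressed by the sinusoidal endothelium, so that its level does not count macrophages alone. Aif1, the actin-binding protein IBA1 that is used to stain macrophages, had 3.50, 2.40, 3.30, 1.04 and 1.40 CPM in HFDfre and 1.09, 1.77, 1.33 and 1.60 CPM in HFDfri (log2 fold change -0.68 ± 0.35, unadjusted p = 0.0746, adjusted p = 0.290).

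Among the rest of the pan-macrophage genes, Fcer1g and Tyrobp are signalling adaptors of Fc and lectin-like receptors, and their log2 fold changes were -0.42 ± 0.24 and -0.29 ± 0.23. Lyz2 (lysozyme), Ctss (cathepsin S) and Cd68 are lysosomal or granule proteins, with -0.20 ± 0.23, -0.32 ± 0.26 and -0.14 ± 0.24. Mpeg1, the pore-forming perforin-2, had -0.07 ± 0.15, and Msr1, a scavenger receptor for modified lipoproteins, -0.13 ± 0.23. Laptm5, a lysosomal membrane protein of blood cells, had 0.08 ± 0.26, and Cd14, the co-receptor for bacterial lipopolysaccharide that hepatocytes also make, 0.01 ± 0.24. The adjusted p-values of these 9 genes ranged from 0.346 (Fcer1g) to 0.985 (Cd14). Reads of Lyz2 and of its near copy Lyz1 may not be told apart.

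Adgre1, which encodes F4/80, the antigen most used to stain mouse macrophages (ENSMUSG00000004730, chromosome 17, 57358691 to 57483527, + strand, GENCODE M21, GRCm38), had the opposite sign to Csf1r and C1q. Its levels were 3.27, 2.40, 2.46, 1.45 and 0.896 CPM in HFDfre and 1.57, 3.42, 2.74 and 3.90 CPM in HFDfri, and 3 of the 4 HFDfri libraries stood above 4 of the 5 HFDfre libraries. The log2 fold change was 0.48 ± 0.36 (95% interval from -0.30 to 1.25, adjusted p = 0.474). Relative to Clec4f of the same library, Adgre1 stood at 6.82, 3.76, 4.53, 4.48 and 3.12% in HFDfre and at 4.13, 8.56, 8.65 and 9.07% in HFDfri. HFDfri 1, the 1 HFDfri library inside the HFDfre range by this ratio, was the highest library for Marco.

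**Figure D3:**
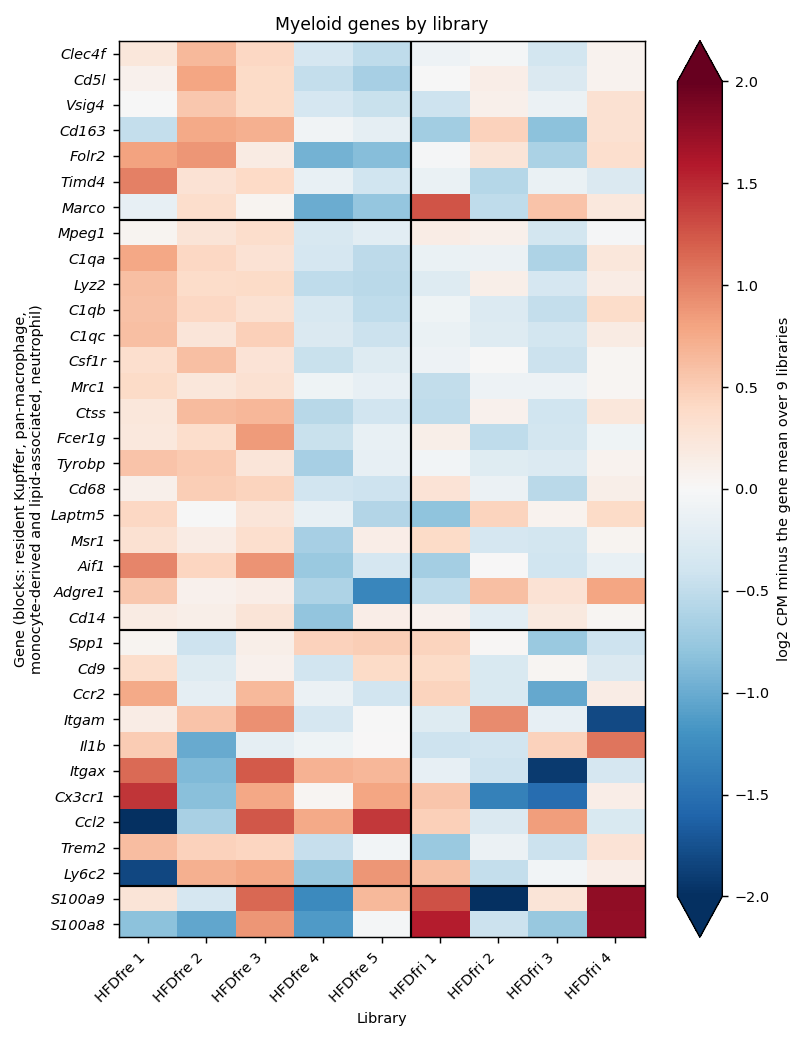
Log2 CPM of the 35 tested members in each library, minus the mean of that gene over the 9 libraries (colour, from -2 to 2, with values beyond those limits drawn in the end colours). The blocks are resident Kupffer, pan-macrophage, monocyte-derived and lipid-associated, and neutrophil genes. HFDfre 4 and 5 are pale to dark blue for nearly all genes of the upper 2 blocks, but for only some of the lower 2, such as Trem2 and Ccr2.

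Within HFDfre, the same libraries were the lowest for most Kupffer and pan-macrophage members. Within HFDfri the order changed from gene to gene, as HFDfri 1 was the highest for Marco and the lowest for Adgre1. HFDfre 4 and HFDfre 5 were the 2 lowest of the 5 HFDfre libraries for 21 of the 23 Kupffer and pan-macrophage members (91.3%), which was the case for 1805 of all 14220 genes (12.7%). The 2 exceptions were Cd163, for which HFDfre 1 was the lowest, and Cd14, for which HFDfre 5 stood above HFDfre 2. The highest of all 9 libraries was HFDfre 1, 2 or 3 for 19 of the 23. This grouping was seen in the values and was not in the labels, so that no test was made of it. The highest HFDfre library exceeded the lowest by a ratio of 1.47 for Mrc1, of 2.22 for Clec4f, of 2.46 for C1qa and of 3.65 for Adgre1.

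Summed over the 7 resident genes, the libraries of HFDfre had 90.2, 127, 105, 61.1 and 55.1 CPM and those of HFDfri 73.9, 82.4, 63.0 and 86.4 CPM. The sums of the 16 pan-macrophage genes were 238, 226, 229, 135 and 137 CPM in HFDfre and 161, 171, 136 and 193 CPM in HFDfri. The resident sums of HFDfri all lay between those of HFDfre 4 and 5 and those of HFDfre 1 to 3. The summed markers of sinusoidal endothelium, of stellate cells and of lymphocytes had the same 2 lowest HFDfre libraries. The lymphocyte markers, at 4.35, 5.31, 7.05, 3.81 and 3.39 CPM in HFDfre, ranged as widely as the macrophage genes, with a highest sum 2.08 times the lowest. The highest HFDfre sum was 2.30 times the lowest for the resident Kupffer genes and 1.76 times for the pan-macrophage genes. It was 1.23 times for 12 genes of sinusoidal endothelium, 1.56 times for 12 of stellate cells and 1.07 times for 10 of hepatocytes. For 8 dendritic cell genes it was also 1.76 times, with HFDfre 5 the highest. Within HFDfri the ratio was 1.37 for the resident genes, 1.42 for the pan-macrophage genes and 1.31 for hepatocytes. It was 1.48 there for endothelium, 1.46 for dendritic cells, 1.52 for lymphocytes and 1.74 for stellate cells. A wider range than that of endothelium and stellate cells was thus seen in HFDfre only. Within their group, HFDfre 4 and 5 also had the lowest shares of mitochondrial counts, 11.4 and 14.7% against 15.0 to 19.8%. They had the largest totals of that group, 68132268 and 68528457 counts. The mitochondrial shares of HFDfri 1 to 4 were 13.6, 10.4, 8.93 and 9.63%, and HFDfri 3 had a total of 69353439 counts. The part of these measures in the order of the macrophage genes was not tested.

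**Figure D4:**
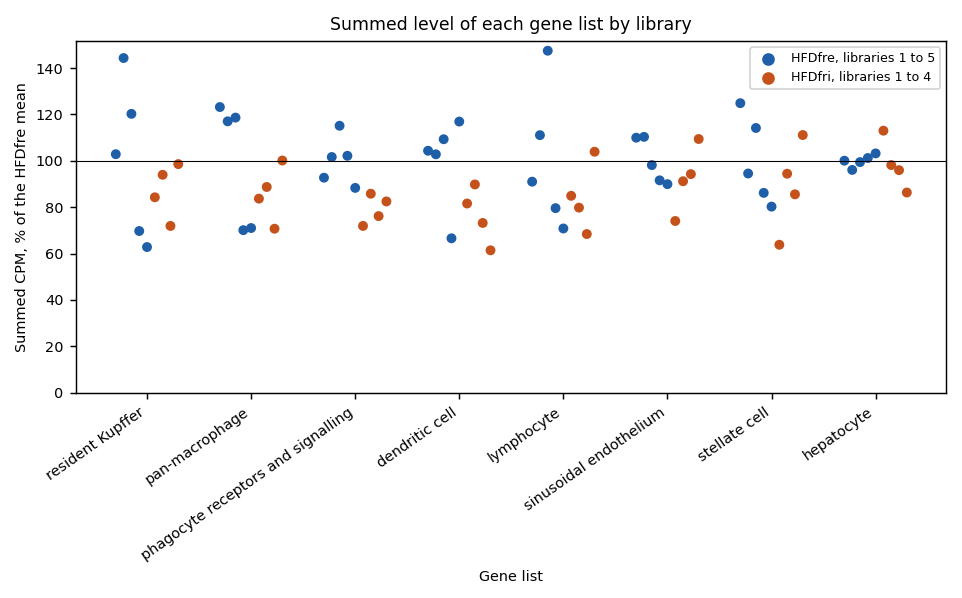
Summed CPM of 8 gene lists in each library, as a percent of the HFDfre mean of that list (points, HFDfre libraries 1 to 5 and HFDfri libraries 1 to 4 from left to right within a list; the axis starts at 0). HFDfre ranges 2.30-fold for the resident Kupffer genes and 1.07-fold for the hepatocyte genes, and HFDfri 1.37-fold and 1.31-fold.

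The monocyte-derived and lipid-associated genes followed another order. Their median log2 fold change was -0.33, with 9 of 10 tested genes below 0. HFDfre 4 and 5 were the 2 lowest of their group for 2 of the 10 tested genes, and for Spp1 they were the 2 highest. Spp1 encodes osteopontin, which lipid-associated macrophages and also bile duct cells make, and its levels were 29.4, 21.3, 30.7, 39.2 and 40.0 CPM in HFDfre and 38.5, 28.8, 16.9 and 21.2 CPM in HFDfri (log2 fold change -0.29 ± 0.24, adjusted p = 0.522). Cd9, a tetraspanin of many cell types, had a log2 fold change of -0.09 ± 0.20 (adjusted p = 0.844). These 2 genes held most of the counts of the group, and the other genes stood below 2 CPM in every library.

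Itgax, which encodes the integrin CD11c of dendritic cells and of recruited macrophages (ENSMUSG00000030789, chromosome 7, 128129547 to 128150657, + strand, GENCODE M21, GRCm38), was the 1 member past an unadjusted p of 0.05. It had 41, 11, 55, 41 and 40 counts in HFDfre libraries 1 to 5 and 17, 18, 5 and 16 counts in HFDfri libraries 1 to 4. In CPM these were 0.588 ± 0.264 (SD, n = 5) and 0.221 ± 0.104 (SD, n = 4), and 4 of the 5 HFDfre libraries stood above every HFDfri library, with HFDfre 2 inside the range of HFDfri. The log2 fold change was -1.41 ± 0.55 (95% interval from -2.61 to -0.22, unadjusted p = 0.0239, adjusted p = 0.173). The unadjusted p was 0.0502 without HFDfre 1, 0.0565 without HFDfre 3 and 0.0616 without HFDfri 3. Of all genes, 9.79% were lower at an unadjusted p of 0.05.

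Trem2, the lipid-sensing receptor that defines lipid-associated macrophages, had 31, 34, 34, 19 and 26 counts in HFDfre and 12, 25, 20 and 28 counts in HFDfri (log2 fold change -0.49 ± 0.41, adjusted p = 0.526). Gpnmb, another gene of these cells, had too few counts to be tested, with 6, 4, 23, 10 and 20 counts in HFDfre and 0, 0, 0 and 4 counts in HFDfri. It was above 3 counts in each HFDfre library and in 1 of the 4 HFDfri libraries. Cx3cr1 and Ccr2 are the chemokine receptors of patrolling and of inflammatory monocytes, and their log2 fold changes were -0.98 ± 0.62 and -0.32 ± 0.37. Ly6c2, a surface antigen of inflammatory monocytes, had -0.21 ± 0.60, and Itgam, the integrin CD11b, -0.35 ± 0.51. None of these 5 tested genes passed an unadjusted p of 0.05, the smallest being 0.136 (Cx3cr1), whose annotated span overlaps 9 other genes. Reads of Ly6c2 and of its near copy Ly6c1 may not be told apart.

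The cytokines Ccl2, Tnf and Il1b are members for which the study lists RT-qPCR primers. Its primers are shown in lower case from 5′ to 3′, forward then reverse, because they fix the stretch of each transcript that such an assay reads. They span positions 115 to 230 of Il1b-201, 186 to 283 of Ccl2-201 and 797 to 847 of Tnf-201 (GENCODE M21).
Il1b forward: gaaatgccaccttttgacagtg
Il1b reverse: tggatgctctcatcaggacag
Ccl2 forward: tcacctgctgctactcattcacca
Ccl2 reverse: tacagcttctttgggacacctgct
Tnf forward: cagcgctgaggtcaatctgcc
Tnf reverse: tgcccggactccgcaa
The study reported that inflammation-related genes were upregulated in the liver of HFDfri mice, in larger groups of mice than those sequenced. Its text does not name these genes. By RNA-seq the 3 genes had few counts, and Tnf was at 0 in 3 libraries and Ccl2 in 1. Il1b, the inflammasome-processed cytokine, had 47, 19, 36, 42 and 45 counts in HFDfre and 26, 34, 64 and 82 counts in HFDfri (log2 fold change 0.41 ± 0.42, adjusted p = 0.612). Ccl2, the chemokine that recruits monocytes through CCR2, had 0, 12, 51, 39 and 63 counts and 25, 18, 43 and 15 counts (log2 fold change -0.34 ± 0.77, adjusted p = 0.842). Tnf, the main macrophage cytokine, had 9, 0, 21, 3 and 0 counts in HFDfre and 4, 9, 0 and 4 counts in HFDfri and was not tested. For each of the 3 genes the groups overlapped, and the 95% interval of the log2 fold change of Ccl2, from -2.02 to 1.34, reached far in either direction.

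The neutrophil genes S100a8 and S100a9 encode the 2 subunits of calprotectin. S100a8 had 4, 4, 21, 4 and 11 counts in HFDfre and 30, 8, 6 and 37 counts in HFDfri, and S100a9 had 24, 19, 58, 10 and 44 and 54, 0, 34 and 84. By CPM, HFDfri 1 and HFDfri 4 were the 2 highest of the 9 libraries for both genes. The log2 fold changes were 1.28 ± 0.75 and 0.54 ± 0.84, with adjusted p-values of 0.356 and 0.760. Of 13 genes listed as neutrophil markers 4 could be tested, and 3 of these had a log2 fold change above 0 and 1 below, with a median of 0.60. At an unadjusted p of 0.05, 1 was higher and 0 lower, where 11.4% of all genes were higher. The 2 with the smallest p, Lcn2 and Prtn3, are given under the other observations. Mpo and Camp had 0 counts in all 9 libraries, and Ly6g and Ltf had 0 counts in 8 of the 9. A count of 0 allows up to 3 counts, which is between 0.0407 and 0.0578 CPM in these libraries and covers counting error only.

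**Figure D5:**
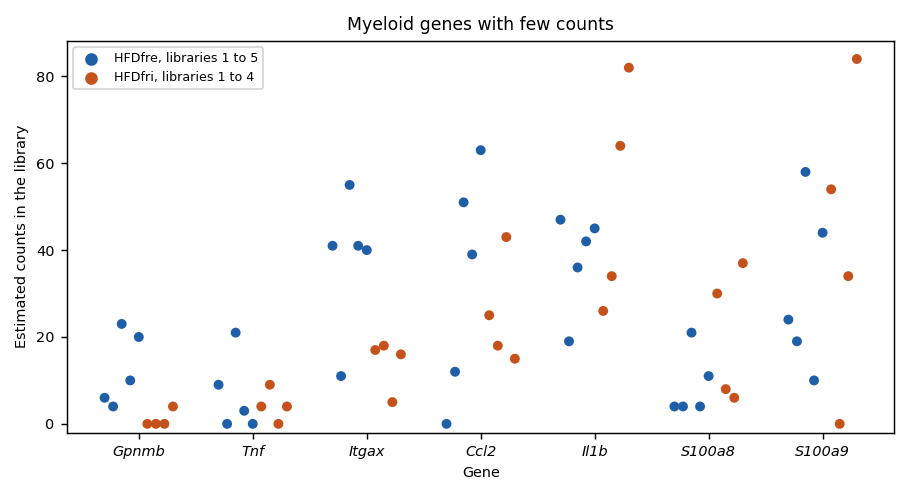
Estimated counts per library of 7 members with few counts (points; HFDfre libraries 1 to 5 and HFDfri libraries 1 to 4 from left to right within a gene). For Itgax and Gpnmb, 4 of 5 HFDfre libraries lie above every HFDfri library. HFDfre 2 does not, and for the other genes the groups overlap more widely.

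The genes that act around the members were read from 5 lists. Of 14 myeloid transcription factors, 0 passed the adjusted threshold. At an unadjusted p of 0.05, 3 were lower in HFDfri, 0 were higher, and 9.79% of all genes were lower. They included Spi1, with 2.58, 2.97, 2.14, 1.61 and 0.840 CPM in HFDfre and 1.26, 1.18, 0.679 and 1.28 CPM in HFDfri (log2 fold change -0.88 ± 0.35, adjusted p = 0.181), for which HFDfre 4 and 5 were again the lowest HFDfre libraries. Cebpb, a factor of myeloid cells and of hepatocytes, had a log2 fold change of -0.60 ± 0.22 (adjusted p = 0.162). Of 31 phagocyte receptor and immune signalling genes, 0 passed the adjusted threshold, 6 were lower at an unadjusted p of 0.05 and 0 higher, and the median log2 fold change was -0.23. Of these 31, 3 had all HFDfri libraries below all HFDfre libraries, against 3.66% of all genes. HFDfre 4 and 5 were the 2 lowest of their group for 20 of the 31 (64.5%).

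Cd36, the fatty acid and scavenger receptor that hepatocytes and endothelium also express, had 31.9, 37.6, 68.0, 91.3 and 51.3 CPM in HFDfre and 18.8, 26.3, 24.2 and 27.9 CPM in HFDfri. Each HFDfri library was below each HFDfre library (log2 fold change -1.21 ± 0.27, adjusted p = 0.0566), and HFDfre 4 was the highest, unlike for the macrophage genes. Without HFDfri 1 its adjusted p was 0.0428. Dock2, which drives the movement of leukocytes, had 1.48, 1.99, 1.91, 1.17 and 0.966 CPM and 0.872, 0.761, 0.733 and 0.642 CPM, with a log2 fold change of -0.998 ± 0.28 (adjusted p = 0.0916). Of 19 tested growth factor and chemokine genes, Cxcl10 fell past the adjusted threshold, with 4.37, 3.78, 5.84, 4.16 and 4.58 CPM in HFDfre and 2.19, 1.98, 2.74 and 2.93 CPM in HFDfri. Cxcl10 is an interferon-induced chemokine that several liver cell types make, and its log2 fold change was -0.89 ± 0.18 (adjusted p = 0.0464). When each library was left out in turn its adjusted p ranged from 0.0311 to 0.118 and was under 0.05 only without HFDfri 1. Of these 19, 3 were higher and 2 lower at an unadjusted p of 0.05, where 11.4% of all genes were higher. Csf3, Ccl12 and Il6 had 0 counts in all 9 libraries.

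Of 19 lysosomal and lipid-associated macrophage genes, 0 passed the adjusted threshold, and the nearest were Abca1, a cholesterol exporter of most cells (log2 fold change 0.49 ± 0.11, adjusted p = 0.0566), and Ctsb, cathepsin B (-0.24 ± 0.08, adjusted p = 0.140). Each HFDfri library was above each HFDfre library for Abca1, as for 4.02% of all genes, and below each for Ctsb. The adjusted p of Abca1 was 0.0415 without HFDfri 1 and 0.0492 without HFDfri 2. Of 15 tested inflammasome and NF-kB genes, 0 passed, with -0.89 ± 0.37 for Casp1, the protease that activates IL-1β (adjusted p = 0.195), and 0.24 ± 0.11 for Rela, an NF-kB subunit (adjusted p = 0.220).

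Markers of the other cells in whole liver were read in the same way, beside the 9.79% of all genes that were lower and the 11.4% that were higher at an unadjusted p of 0.05. Of 8 dendritic cell genes all 8 had a log2 fold change below 0 and 0 passed an unadjusted p of 0.05, the nearest being Xcr1 (-0.82 ± 0.49) and Ccr7 (-1.31 ± 0.80). Of 11 tested lymphocyte genes 9 were below 0, and Cd4, a T cell co-receptor, was higher at an unadjusted p of 0.00518 (log2 fold change 0.86 ± 0.25), while Nkg7, of cytotoxic cells, had -0.999 ± 0.50. Of 12 sinusoidal endothelium genes 9 were below 0, with a median of -0.13, and 2 were lower and 0 higher at an unadjusted p of 0.05, with -0.45 ± 0.18 for Tek, a vascular receptor kinase, and -0.24 ± 0.10 for Stab1, a scavenger receptor of sinusoids. Of 12 stellate cell genes 8 were below 0, with a median of -0.12, and 3 were lower and 0 higher at that p, among them Des (-0.63 ± 0.23) and Col1a2 (-0.66 ± 0.25). Of 10 hepatocyte genes 4 were below 0, and 3 were higher and 1 lower at that p, with 0.46 ± 0.10 for Hnf4a, a hepatocyte transcription factor, and 0.70 ± 0.17 for Cps1, a urea cycle enzyme. Of 7 tested bile duct genes 4 were below 0, with a median of -0.02. At that p 0 were lower and 2 higher, Cdh1 (0.64 ± 0.17) and Sox9 (0.93 ± 0.28). The highest count of Cdh1 was 1783, against at most 343 for the other genes of this list. Which cells the RNA of Cdh1 came from was not tested. Of 7 tested blood genes 6 were below 0, with a median of -0.39, and 1 was lower at that p. The 1 gene above 0, Alas2, an enzyme of haem synthesis in red cells, rose past the adjusted threshold (0.40 ± 0.08, adjusted p = 0.0486), and its adjusted p was under 0.05 in 1 of the 9 fits that left out a library, again without HFDfri 1 (0.0246). Of 4 tested genes of adipose tissue and mesothelium, Cfd had -1.16 ± 0.44 (unadjusted p = 0.0213) and Upk3b 0.64 ± 0.62, and Adipoq and Plin1 had 0 counts in all 9 libraries.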

How the data were processed

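Liver RNA-seq of 5 HFDfre and 4 HFDfri libraries was used. Per the labels, RNA was extracted with TRIzol. The library kit is NEBNext Ultra in the labels and KAPA RNA HyperPrep in the methods of the study, and the use of strand is not given in the sources used here. Reads were paired-end Illumina reads, and the submitters' processing notes name HISAT2, StringTie and mm10. The authors deposited 1 table of whole numbers per gene, treated here as estimated counts (rounding left them as they were), although the test had been planned for plain counts. Low values pile up at 4 (3990 gene and library pairs, against 2172 at 3 and 1840 at 5), the cause of which was not tested. Every sample column was used.

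edgeR 4.0.16 (R 4.3.3) was used, with its quasi-likelihood test, on the 14220 of 33211 genes kept by filterByExpr, with TMM, no covariate, and Benjamini-Hochberg adjustment over all 14220. Standard errors were derived from the log2 fold change and the F statistic (their ratio, after taking the root of F). CPM are counts as a share of the TMM-scaled library total. Log2 CPM used a prior count of 2. Coordinates and exon lengths came from GENCODE M21 (GRCm38), which held 96.3% of the identifiers. The scripts were tested on simulated data. The study used DESeq2, an alternative here (1.42.0). The others were limma-voom (limma 3.58.1), DESeq2 size factors, library totals, no filter, 10 counts in every library, counts divided by 4, a replicate block, the share of Gm26924 as covariate, libraries under 3% Gm26924, and leaving out each library. Gm26924 is a ribosomal RNA-like locus. It held 11.1, 7.50, 1.25, 5.58 and 1.20% of counts in HFDfre 1 to 5 and 0.931, 0.466, 5.21 and 1.95% in HFDfri 1 to 4.

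Members and lists were chosen with earlier results of these data known. All members are named. From the 5 lists around them and the 9 marker lists, genes past the adjusted threshold are named or, where there were none, the 2 with the smallest p. Intervals are 95%.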

Additional observations from a re-analysis of the deposited data

Results flagged for a closer look

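Among the 70 sets tested (35 members in each of the groups), 4 had 1 library far from the others by Dixon's criterion, and about 1 in 20 sets, or 3.5 here, would be found by chance. Msr1 stood at 1.08 log2 CPM in HFDfre 4, against 1.87 to 2.08 in the other HFDfre libraries, a gap of 0.788 of the range. Cd14 stood at -0.20 log2 CPM in HFDfre 4, against 0.71 to 0.86 (gap 0.854). HFDfre 4 was among the 2 lowest HFDfre libraries for most of the macrophage genes. Itgax stood at -2.31 log2 CPM in HFDfre 2, against -0.76 to -0.20 in the rest of that group (gap 0.733). In HFDfri 3 Itgax stood at -3.34 log2 CPM, against -1.84 to -1.58 (gap 0.856), and the counts behind these values were 11 and 5.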

How the results depend on the processing

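No member passed the adjusted threshold under any alternative, with edgeR, DESeq2 or limma-voom. The number of members past an unadjusted p of 0.05, 1 as reported (Itgax), was 3 with DESeq2 (Itgax, Marco, Timd4), 0 with limma-voom, 2 with library totals (Itgax, Marco), 2 with no filter (Gpnmb, Itgax), 0 with 10 counts in every library and 0 with counts divided by 4 (28 members tested in each), and 3 in libraries under 3% Gm26924 (Ccl2, Gpnmb, Itgax). It ranged from 0 to 6 when each library was left out, with 6 without HFDfre 4, 5 without HFDfre 5, 3 without HFDfri 1, 2 without HFDfre 2, HFDfri 2 or HFDfri 4, and 0 without HFDfre 1, HFDfre 3 or HFDfri 3. When each library was left out, the median log2 fold change of the members stayed below 0, from -0.36 to -0.13. That of the resident Kupffer genes then went from -0.36 to 0.05, the latter without HFDfre 2. Members with a log2 fold change below 0 were 28 of 35 as reported and 23 of 36 in libraries under 3% Gm26924. They were 25 of 35 without HFDfre 2 and 30 of 35 without HFDfri 4. Same-numbered libraries did not deviate together (r from -0.14 to 0.08). The labels do not say whether the numbers pair animals, and such correlations cannot exclude a pairing. With the replicate block 1 member passed the unadjusted p (Timd4) and 0 of all genes passed the adjusted threshold, against 150 as reported, 1033 by DESeq2, 72 when unfiltered, 76 when scaled by library totals, 38 given the covariate and 2 in libraries under 3% Gm26924. Left-out libraries moved that count from 6 (without HFDfre 3 or HFDfre 5) and 10 (without HFDfri 3) to 1106 (without HFDfri 1), so that the 1.05% of all genes is itself unstable. The libraries under 3% Gm26924 were HFDfre 3 and 5 and HFDfri 1, 2 and 4. In that setting a lower share and fewer libraries cannot be told apart. Signs turned for some genes. In libraries under 3% Gm26924 the log2 fold change was 0.11 for Cd5l, 5.9e-04 for Vsig4, 0.45 for Folr2, 0.056 for C1qa, 0.016 for Lyz2, 0.067 for C1qb, 0.016 for Cd68 and -0.23 for Cd14. With limma-voom it was 0.011 for Folr2, 0.41 for Ccl2, 0.020 for Ly6c2, -0.86 for S100a9 and -0.045 for Lcn2, with the Gm26924 covariate 0.19 for Folr2, with the block -0.088 for Laptm5, 0.0065 for Cd9, 0.40 for Ccl2 and 0.25 for Ly6c2, and with 10 counts in every library -5.2e-05 for Cd14. Without single libraries it ranged from -0.14 to 0.089 for Cd14, -0.29 to 0.082 for Cd5l, -0.27 to 5.6e-04 for Cd68, -0.26 to 0.0049 for Cd9, -0.37 to 0.049 for Folr2, -0.059 to 0.28 for Laptm5, -0.48 to 0.011 for Ly6c2, -0.15 to 0.031 for Mpeg1, -0.033 to 0.96 for S100a9, -0.20 to 0.054 for Vsig4 and -0.097 to 1.38 for Lcn2, lowest without HFDfri 1. Cxcl10 and Alas2 kept an adjusted p under 0.05 with DESeq2, limma-voom, 10 counts in every library and counts divided by 4 and lost it with library totals, no filter, the block, the covariate and libraries under 3% Gm26924, and Alas2 also with DESeq2 size factors (0.0510). Cd36 came under 0.05 with DESeq2, 10 counts in every library and counts divided by 4 (adjusted p = 2.4e-04, 0.0444 and 0.0484), and Abca1 with DESeq2 (0.00367), as did Cd4, Cdh1, Cps1, Ctsb, Cxcl1, Dock2, Hnf4a and Sox9. The cause of these changes was not tested. Genes under about 100 counts, such as Trem2 and Ccl2, had wide intervals at this depth.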

Other observations

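The chemokine Cxcl1, which draws neutrophils, was named after its values were seen. It had 2.70, 3.32, 4.39, 3.64 and 4.55 CPM in HFDfre and 35.2, 2.59, 5.02 and 17.8 CPM in HFDfri (log2 fold change 2.02 ± 0.57, edgeR adjusted p = 0.0951). Without HFDfri 1 the log2 fold change was 1.17 (adjusted p = 0.138), and the adjusted p was 0.0321 without HFDfri 2 and 0.0440 with DESeq2. The 2 high libraries were HFDfri 1 and HFDfri 4, which were also the highest for S100a8 and S100a9. Lcn2, an acute-phase protein that hepatocytes as well as neutrophils make, had 60.8 and 27.0 CPM in these libraries and 3.19 and 2.61 CPM in HFDfri 2 and 3, against 4.18 to 19.6 CPM in HFDfre (log2 fold change 1.01 ± 0.78, adjusted p = 0.493). Prtn3, a protease of neutrophil granules, had 3.61 and 2.16 CPM in HFDfri 1 and 4 and 0.207 and 0.272 CPM in HFDfri 2 and 3 (log2 fold change 1.86 ± 0.73, adjusted p = 0.180), and the log2 fold change of Prtn3 was 1.03 without HFDfri 1.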
